A study of Rattus norvegicus with 78 samples.

Results

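Scaffold, adhesion and kinase genes hold a synapse together, and 40 of them were followed here through the development of the hippocampus and the amygdala. Most act on the postsynaptic side of excitatory synapses, while Gphn and Nlgn2 belong to inhibitory ones and Nrxn2 and Nrxn3 to the presynaptic side. The members were 40 gene symbols, each represented by the array feature of that symbol with the highest mean log2 intensity. All 40 were found among the 9627 named genes and 26419 features of the deposited value table, and 39 of them had 1 feature. Camk2b had 3.

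The animals were male rats of a line bred over generations for little locomotor activity in a new place (Low Responders), so both arms share that background. Exposed offspring were those of dams that drank paroxetine, an inhibitor of serotonin reuptake, at 10 mg per kg per day from the week before conception until weaning at postnatal day 21 (P21). Control offspring were those of dams that drank plain water. Hippocampus and amygdala were taken from each arm on postnatal days 7, 14, 21 and 75, in 16 groups of 5 arrays, except that exposed P7 hippocampus and exposed P7 amygdala had 4. The P75 animals were adults, and the drug had been withdrawn at weaning. The values are single-colour array intensities taken to log2, and every difference is exposed minus control on that scale, ± the standard error of the limma fit.

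In the postsynaptic density, membrane-associated guanylate kinases such as PSD-95 bind glutamate receptors and adhesion molecules at the membrane. They are linked through SAPAP proteins to Shank and Homer, which reach down to the actin of the spine and to internal calcium stores. Calcium entering through NMDA receptors loads calmodulin and activates the kinase CaMKII and the phosphatase calcineurin, whose balance sets the number of AMPA receptors held at the synapse. Neuroligins on this side bind neurexins across the cleft, and most of these genes come on as synapses form after birth.

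A member is said to have risen or fallen only where the Benjamini-Hochberg adjusted p of limma's two-sided test over all 26419 features was under 0.05. Litters are not named in the labels, so these p-values reflect the spread among arrays alone. Each array read RNA of bulk tissue, in which fewer cells of a type and less RNA per cell cannot be told apart. The members are bright features: all 40 lay above the median feature and 26 lay in the brightest 10%, so shares called among the brighter 50% and the brightest 10% of features are given beside the share of all features. The region labels were checked against marker genes. All 7 measured markers of the amygdala and the neighbouring striatum had a higher median in the amygdala. Cyp26b1, a retinoic acid degrading enzyme of the amygdala, read 5.57 to 8.15 in the hippocampus and 8.88 to 10.16 in the amygdala, and Penk, the enkephalin precursor, read 9.92 to 13.08 in the hippocampus and 13.23 to 15.13 in the amygdala. Neurod1, a transcription factor of dentate granule cells, had a median of 8.77 in the hippocampus and 6.46 in the amygdala, with ranges that overlapped. Of 5 measured hippocampal genes Neurod1, Neurod2 and Lhx9 had the higher median in the hippocampus, while Wfs1 (10.01 in the hippocampus, 11.79 in the amygdala) and Calb1 (8.94 and 10.09) did not. Levels set across regions are limited by a normalization that may have been separate.

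Some array measures separated the arms before any member was read. A control probe of random sequence read higher on every exposed than every control hippocampal array at P7 (51.44 to 54.63 against 43.41 to 44.32) and P14 (48.12 to 49.26 against 43.41 to 46.21). It read lower on every exposed hippocampal array at P21 (46.75 to 48.44 against 54.81 to 55.53) and P75 (48.76 to 49.43 against 55.33 to 57.2). On principal component 1 of the hippocampal features, with 39.1% of the variance, all control arrays of P7 and P14 scored between -101.6 and -47.5, while every other hippocampal array scored between -19.3 and 61.2. That of the amygdala, with 27.7%, also separated the arms at P14 (42.6 to 48.5 on exposed, -53.5 to -35.8 on control arrays). At P21 it did so too (49.7 to 58.9 against -12.1 to -5.6), while the arms overlapped at P7 and P75. Within groups, exposed P7 hippocampal arrays 3 and 4 stood apart from arrays 1 and 2, control P14 hippocampal arrays 4 and 5 from the other 3, and exposed P75 amygdalar arrays 1 and 2 from the other 3. The labels name no batches, and batch and arm cannot be told apart.

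At P7, before most hippocampal synapses have matured, 27 of the 40 members fell and 6 rose in exposed pups, and the median difference of the 40 was -0.67. Over all features 28.3% fell and 25.1% rose with a median of 0.07, and over the brighter 50% of features 45.6% fell and 23.9% rose with a median of -0.29. Of the brightest 10%, 55.8% fell and 21% rose, with a median of -0.41. The share of members that fell (67.5%) was above these backgrounds, and the share that rose was below them. After quantile normalization 23 fell and 10 rose.

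The PSD-95 family fell as a block, since 4 of its 4 members were lower in exposed pups at P7. Dlg2, which encodes the scaffold PSD-93, read 9.51, 9.50, 9.42 and 9.56 on the exposed arrays and 11.82, 12.02, 11.77, 11.91 and 11.74 on the control arrays. The groups were more than 2 log2 units apart and tight within themselves, a difference of -2.35 ± 0.11 (adjusted p = 3.25e-19). Dlg4, which encodes PSD-95 itself, read 11.61 to 11.81 on exposed and 12.95 to 13.30 on control arrays (-1.38 ± 0.11). Dlg3, or SAP102, the family member that dominates young synapses, differed by -1.07 ± 0.15, and Dlg1, or SAP97, by -0.68 ± 0.23. The Dlg1 call rested on 1 array: without exposed array 3 the difference was -0.46, with adjusted p = 0.096.

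The scaffold layer beneath was split. Homer1, Homer2 and Homer3, which tie group I metabotropic glutamate receptors to calcium stores, and Shank2 fell, with Homer1 and Homer2 both at -1.29. Shank1 rose by 0.30 ± 0.10, and its exposed arrays (12.54 to 12.82) all lay above its control arrays (12.20 to 12.47), although the adjusted p was 0.0541 without exposed array 1. Shank3 did not pass the test at 0.07 ± 0.12. Of the 6 SAPAP and related partners, Dlgap1 and Dlgap3 fell, and Dlgap4 rose. The Dlgap3 call (-0.29 ± 0.11) was lost without any of 4 single arrays and its sign turned after quantile normalization (0.05). Dlgap4, one of the SAPAP linkers between PSD-95 and Shank, read 10.96, 10.90, 11.08 and 11.20 on exposed and 10.41, 10.44, 10.76, 10.63 and 10.40 on control arrays. Its groups did not overlap, and the difference was 0.51 ± 0.11 (adjusted p = 0.000223).

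Among the CaMKII genes 5 of 6 fell at P7. Camk2a, the alpha subunit, differed by -0.89 ± 0.11, and Camk2n2, an endogenous inhibitor of the kinase, by -1.04 ± 0.16. The exception was Camk2b, the beta subunit, at -0.05 ± 0.10 for the feature used. Its 3 features did not agree, since the other 2 gave 0.81 and -0.62 and both passed the test in opposite directions. Downstream of calcium, Ppp3ca, the catalytic subunit of calcineurin, fell by 1.42 on the log2 scale. Itpka, an inositol trisphosphate kinase that also bundles spine actin, differed by -1.35 ± 0.15. Nrgn went the other way. Neurogranin, its product, binds calcium-free calmodulin in forebrain spines. Its feature read 14.35, 14.18, 14.13 and 14.04 on exposed arrays and 13.52, 13.78, 13.60, 13.57 and 13.73 on control arrays, every exposed array above every control one (0.54 ± 0.12, adjusted p = 0.000341).

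All 4 spine actin members fell at P7, led by Baiap2, whose product IRSp53 bends the membrane of growing spines and binds PSD-95. Baiap2 read 8.61, 8.43, 8.33 and 8.17 on exposed and 9.94, 10.13, 9.81, 10.09 and 9.90 on control arrays. No exposed array came within a log2 unit of a control array, and the difference was -1.59 ± 0.12 (adjusted p = 3.58e-14). Ppp1r9b, or spinophilin, which anchors protein phosphatase to spine actin, Ppp1r9a, or neurabin, and Kalrn, an exchange factor for Rac, fell as well. Gphn, the gephyrin gene and the only inhibitory scaffold among the members, differed by -1.47 ± 0.14, so the lower levels included a gene of inhibitory synapses. Nlgn2, the other member of inhibitory synapses, did not pass the test at P7 (12.49 to 12.72 on exposed and 12.32 to 12.79 on control arrays). After quantile normalization limma called Nlgn2 higher (0.31 ± 0.10, adjusted p = 0.00963).

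AMPA receptor partners fell in 4 of 5 cases at P7. Pick1, which pulls AMPA receptors off the surface, read 6.77, 8.05, 7.64 and 7.45 on exposed arrays and 9.78, 9.23, 8.74, 9.12 and 9.12 on control arrays. Its exposed arrays were scattered over more than a log2 unit yet stayed below every control array (-1.72 ± 0.24, adjusted p = 1.02e-07). Cacng2, which encodes stargazin, the auxiliary subunit that carries AMPA receptors to the synapse, rose by 0.27 ± 0.10, a call lost without any of 5 single arrays (adjusted p = 0.056 to 0.0862). The adhesion group had no common direction. Nlgn1, the neuroligin of excitatory synapses, read 10.22, 10.16, 10.14 and 10.18 on exposed and 9.68, 9.88, 9.83, 9.79 and 9.70 on control arrays, which did not overlap (0.40 ± 0.10, adjusted p = 0.000672). Nlgn3 rose too (0.31 ± 0.10), and Nrxn2, a presynaptic neurexin, fell (-0.66 ± 0.11).

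Other measures moved with the P7 falls. Astrocyte markers fell in 7 of 8 cases, with a summed intensity of 19250 to 20495 on exposed and 54907 to 63112 on control arrays, and of 11 general neuronal markers 9 fell and 2 rose (88555 to 92504 against 149467 to 161380). Choroid plexus markers rose in 6 of 7 cases, with sums of 7573 to 9303 on exposed and 2364 to 2690 on control arrays. Array intensities have no true zero, so no marker can be called absent, and their part in the result was not tested. With the random probe's reading as a covariate 6 members were called, all lower. The differences of Nrgn (-0.12 ± 0.39) and Shank1 (-0.18 ± 0.32) turned sign without passing the test. The probe separated the arms at every hippocampal age, so this covariate overlaps with exposure and widens the standard errors. A call lost in such a fit may reflect lost precision, here and at the later ages. In the main fit the count of called members was 29 without exposed arrays 3 and 4 (4 rose, 25 fell) and 30 without exposed arrays 1 and 2 (4 rose, 26 fell).

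**Figure D1:**
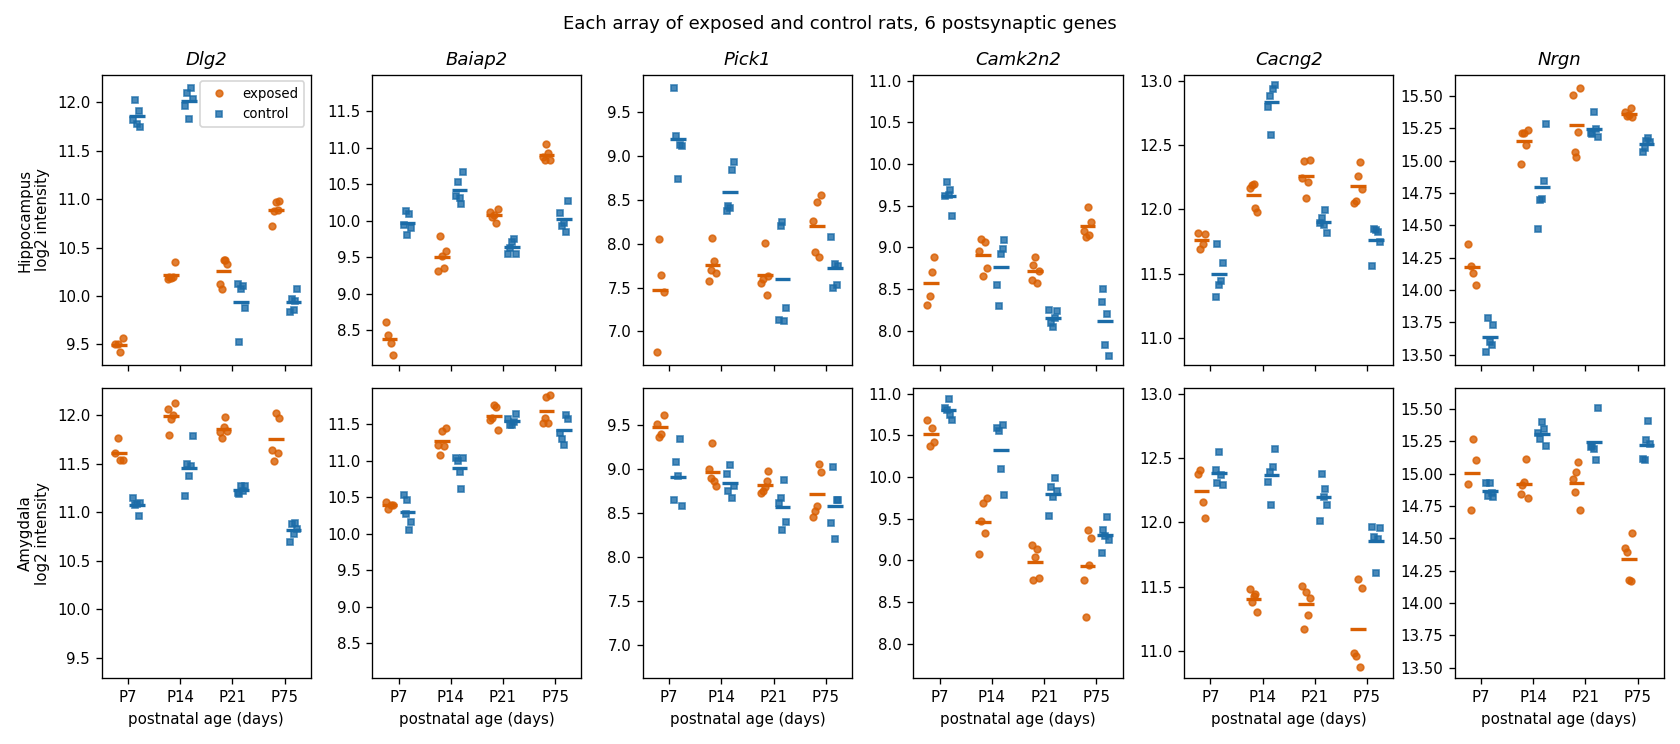
Log2 intensity of 6 members on every array, by postnatal age in days, in the hippocampus (top row) and the amygdala (bottom row). Circles are exposed and squares control arrays, and short lines are group means; each column of panels has its own scale. In the hippocampus Dlg2, Baiap2 and Pick1 lie far below the control arrays at P7 and P14, and Dlg2, Baiap2 and Camk2n2 lie above them at P75, while Cacng2 in the amygdala lies below its control arrays from P14 on.

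At P14, in the second postnatal week when spine synapses multiply, 24 members fell and 2 rose in the exposed hippocampus. The median difference was -0.40. Of all features 22.2% fell and 16% rose, and among the brighter 50% of features, 35.7% fell and 19.4% rose, with medians of 0.01 and -0.14. Of the brightest 10%, 42.7% fell and 20.3% rose (median -0.16), against 60% and 5% of the members. The PSD-95 family fell again in 4 of 4 members and AMPA receptor partners in 5 of 5, whereas 1 of 6 CaMKII genes did. The Camk2b feature used did not pass the test (-0.11), while a second Camk2b feature fell (-0.32, adjusted p = 0.0206).

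Dlg2 at P14 read 10.17, 10.19, 10.18, 10.20 and 10.35 on exposed arrays and 11.96, 12.09, 11.82, 12.15 and 12.04 on control arrays (-1.79 ± 0.10, adjusted p = 1.56e-15). Dlg1 read 7.41, 7.40, 7.70, 8.06 and 7.49 on exposed and 8.75, 9.03, 8.47, 9.49 and 9.29 on control arrays (-1.40 ± 0.21, adjusted p = 2.37e-06). Both genes kept their arms apart, and the control values of Dlg1 were the more scattered. Homer1 read 9.26, 9.54, 9.58, 9.12 and 9.44 on exposed arrays, against 10.39, 10.51, 10.43, 10.64 and 11.04 on control arrays. Its arms did not overlap either (-1.21 ± 0.13, adjusted p = 3.01e-09).

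The 2 members that rose at P14 were again Nrgn and Nlgn1, both by little and both with overlapping groups. Nrgn read 14.97, 15.22, 15.21, 15.12 and 15.24 on exposed arrays and 14.47, 14.69, 14.70, 14.84 and 15.28 on control arrays. Control array 5 was the highest of all 10 (0.35 ± 0.12, adjusted p = 0.0144), and without control array 1 the adjusted p was 0.0636. Nlgn1 differed by 0.24 ± 0.09 and lost its call without any of 6 single arrays. Dlgap3, Dlgap4, Shank1, Camk2n1 and Camk2n2, which had all been called at P7, did not pass the test at P14, with differences between 0.00 and 0.15.

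Cacng2 had switched sides between these ages, with 11.98 to 12.20 on exposed and 12.58 to 12.96 on control arrays at P14 (-0.72 ± 0.10). Its difference over the 4 hippocampal ages was not constant (limma F test, adjusted p = 5.55e-09). Of 8 astrocyte markers 6 fell at P14, with sums of 43078 to 47508 on exposed and 73014 to 93609 on control arrays, and of 11 neuronal markers 7 fell (133005 to 137046 against 159167 to 195534). Vessel, microglial and hippocampal identity sums were lower on every exposed array at P7 and P14, and choroid plexus sums were higher at P14 too. Their part in the result was not tested. With the random probe as a covariate 14 members were called, all lower. The count was 19 without control arrays 4 and 5 (1 rose, 18 fell) and 27 without control arrays 1, 2 and 3 (all lower).

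The bases before the annotated start of members that moved opposite ways are shown for Homer1 and Dlg1, which fell at both young ages, and for Nrgn, which rose. They are 250 bases of the RefSeq GRCr8 assembly on the gene's own strand, 5′ to 3′, for Homer1 at chr2:26278762-26279011 (plus strand), Dlg1 at chr11:82607798-82608047 (minus) and Nrgn at chr8:45452418-45452667 (minus). Capitals mark a match to any of 4 motifs searched on both strands.
Homer1: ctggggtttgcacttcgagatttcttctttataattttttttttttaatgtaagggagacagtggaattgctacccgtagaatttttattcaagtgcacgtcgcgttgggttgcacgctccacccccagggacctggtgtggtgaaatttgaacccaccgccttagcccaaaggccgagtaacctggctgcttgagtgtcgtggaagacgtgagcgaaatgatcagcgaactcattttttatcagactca
Dlg1: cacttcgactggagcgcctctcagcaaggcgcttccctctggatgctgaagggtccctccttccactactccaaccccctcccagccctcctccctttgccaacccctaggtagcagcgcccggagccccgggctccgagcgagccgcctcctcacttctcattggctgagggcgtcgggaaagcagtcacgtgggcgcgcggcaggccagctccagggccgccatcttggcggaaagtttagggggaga
Nrgn: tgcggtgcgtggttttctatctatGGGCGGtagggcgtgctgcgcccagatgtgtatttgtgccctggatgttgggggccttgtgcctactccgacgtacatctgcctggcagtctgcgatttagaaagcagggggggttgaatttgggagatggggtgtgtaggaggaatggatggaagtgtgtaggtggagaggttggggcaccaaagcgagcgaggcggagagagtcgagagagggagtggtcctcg
The motifs were the EGR1 motif GCGNGGGCG, the GC box GGGCGG, the core TGACG of the cAMP response element and the MEF2 motif, and an EGR1 match can overlap a GC box. A promoter window existed for 31 of the 40 members, and those of 6, these 3 included, ended at the outermost annotated start of their gene. The EGR1 motif stood in 4 of the 31 (Baiap2, Begain, Camk2b and Camk2n2) and in 4.29% of all 33469 windows. A GC box stood in 14 of 31 and in 30.47% of all windows, and the cAMP core in 2 of 31 and in 18.22%. The MEF2 motif stood in 0 of 31 and in 0.52% of all. A member was counted if any of its windows held the motif, while the percentages are of single windows, so the units differ. The Homer1 window held none of the 4 and was 46.4% G and C, against 66.4% for Dlg1 and 58.0% for Nrgn. These are descriptions of letters, chosen after the values were seen.

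At P21, the day of weaning, the direction turned. In the exposed hippocampus 18 members rose and 0 fell by limma (0 also at an unadjusted p under 0.05 and by the methods' t-test, the unpaired test that the authors' table headers name), with a median of 0.32 and 39 of 40 means above those of controls. The background was 15.8% higher and 10.6% lower over all features, and 26.3% and 9.25% over the brighter 50%, with medians of 0.04 and 0.18. Of the brightest 10%, 50.2% rose and 4.96% fell (median 0.29), so the members' 45% that rose lay below that background. The PSD-95 family rose in 3 of 4 members, CaMKII genes in 3 of 6, Homer and Shank scaffolds in 3 of 6, and 1 of 5 adhesion genes did. The Camk2b feature used did not pass the test (0.20), while a second Camk2b feature rose (0.51, adjusted p = 0.000808).

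Nrxn2 read 13.03, 13.02, 13.06, 13.25 and 12.96 on exposed arrays and 12.46, 12.53, 12.22, 12.48 and 12.45 on control arrays, with a clear gap between the arms (0.64 ± 0.11, adjusted p = 4.28e-05). Camk2n1, the second endogenous CaMKII inhibitor, read 13.07, 12.96, 12.96, 13.20 and 13.10 on exposed and 12.40, 12.41, 12.48, 12.52 and 12.45 on control arrays. Its arms too were fully apart (0.61 ± 0.10, adjusted p = 5.43e-05). Dlg3 read 11.45, 11.31, 11.43, 11.38 and 11.30 on exposed arrays, against 10.83, 10.71, 10.70, 10.70 and 10.94 on control arrays (0.60 ± 0.14, adjusted p = 0.00167), again without overlap.

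Dlg2, so much lower at P7 and P14, rose by 0.31 ± 0.10 at P21, a call that any of 5 single arrays could end. Without control array 2 the difference was 0.21, with adjusted p = 0.123. Nrgn, which had risen before, differed by 0.03 ± 0.12 and did not pass the test. Astrocyte markers rose in 7 of 8 cases (53583 to 63776 on exposed and 40703 to 44718 on control arrays) and neuronal markers in 7 of 11 (113058 to 123240 against 98666 to 106012). Oligodendrocyte, hippocampal identity and striatal sums were higher and choroid plexus sums lower on every exposed array, and the markers' part in the result was not tested. After quantile normalization 8 members were called, all higher. With the random probe as a covariate limma called 0 members, and 5 were higher at an unadjusted p under 0.05. In that fit Dlg3 differed by -0.16 ± 0.375, a wider error than in the main fit. The probe separated the arms at this age, so lost calls may reflect lost precision.

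In adulthood the exposed hippocampus had higher levels of most members. At P75, 30 of 40 rose and 0 fell by limma (0 also at an unadjusted p under 0.05 and by the methods' t-test), and the median difference was 0.49. Over all features 23.7% rose and 18.6% fell, and over the brighter 50% of features, 41.4% rose and 16.2% fell, with medians of 0.03 and 0.27. Among the brightest 10% of features 69% rose and 9.84% fell with a median of 0.48, near the members' 75% and median. The PSD-95 family rose in 4 of 4 members, the SAPAP group in 5 of 6, adhesion genes in 4 of 5, CaMKII genes and Homer and Shank scaffolds in 4 of 6 each, AMPA receptor partners in 3 of 5 and spine actin genes in 3 of 4. The Dlg1 rise (0.56 ± 0.21) was lost without any of 6 single arrays, and the Shank1 rise without any of 5. After quantile normalization Shank1 differed by -0.02.

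The CaMKII inhibitor Camk2n2 and the delta subunit led the adult rises. Camk2n2 read 9.19, 9.12, 9.49, 9.15 and 9.31 on exposed and 8.34, 8.50, 7.82, 8.20 and 7.69 on control arrays. The control arrays were spread over nearly a log2 unit and all lay below the exposed ones (1.14 ± 0.15, adjusted p = 1.27e-07). Camk2d, the delta subunit, read 10.21, 10.17, 10.19, 10.46 and 10.66 on exposed arrays and 9.20, 9.21, 9.13, 9.71 and 9.13 on control arrays. Control array 4 stood above the other controls and still below every exposed array (1.06 ± 0.19, adjusted p = 1.89e-05). Camk2n1 differed by 0.92 ± 0.10. Camk2a and Camk2b, the subunits that make up most of the forebrain kinase, did not pass the test, at 0.04 ± 0.10 for Camk2a and 0.10 ± 0.10 for the Camk2b feature used, while a second Camk2b feature did (0.32, adjusted p = 0.0181).

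Dlg2 read 10.73, 10.87, 10.97, 10.88 and 10.98 on exposed adult arrays and 9.83, 9.96, 9.86, 9.95 and 10.07 on control arrays (0.95 ± 0.10, adjusted p = 6.04e-09). All exposed values were above all control values, the reverse of P7. Homer1 (0.94 ± 0.13), Baiap2 (0.88 ± 0.11) and Dlg3 (0.77 ± 0.14) followed. Begain, Homer2, Shank3, Kalrn, Nrgn, Nlgn1, Grip1 and Pick1 were among the 10 that did not pass the test, with Homer2 at -0.22 ± 0.19 and Kalrn at -0.19 ± 0.15 the only means below those of controls.

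Of the 16 members that fell at both P7 and P14 and rose at P75, 4 were the whole PSD-95 family. The others were Dlgap1, Homer1, Homer3, Shank2, Ppp3ca, Itpka, Nrxn2, Ppp1r9b, Baiap2, Cacng3, Cacng8 and Gphn, and 10 of the 16 also rose at P21. The pattern of the 16 (40% of the members) was met by 12.3% of all features, 22.8% of the brighter 50% and 36.6% of the brightest 10%, and that with the P21 rise by 4.66%, 9.07% and 22.1%, against 25% of the members. Single arrays ended the P14 calls of Nrxn2 (4 arrays) and Cacng3 (3 arrays) among them. The exposure difference changed with age for 34 of the 40 in the hippocampus (limma F test over the 4 ages), against 63.5% of all features and 88.3% of the brightest 10%. The 6 that did not pass that test were Begain, Shank1, Shank3, Camk2b (by the feature used), Nrgn and Nlgn1.

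Neuronal markers all rose at P75 (11 of 11), with sums of 134395 to 142728 on exposed and 90837 to 98054 on control arrays, and astrocyte markers rose in 5 of 8 cases (63302 to 75263 against 46739 to 49497). Of 7 markers of the amygdala and striatum 4 rose (11843 to 13468 against 6048 to 7169), and vessel, microglial, oligodendrocyte, red cell and hippocampal identity sums were also higher on every exposed array. Their part in the result was not tested. Quantile normalization left 17 members called, all higher. With the random probe as a covariate 2 were called, both higher.

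**Figure D2:**
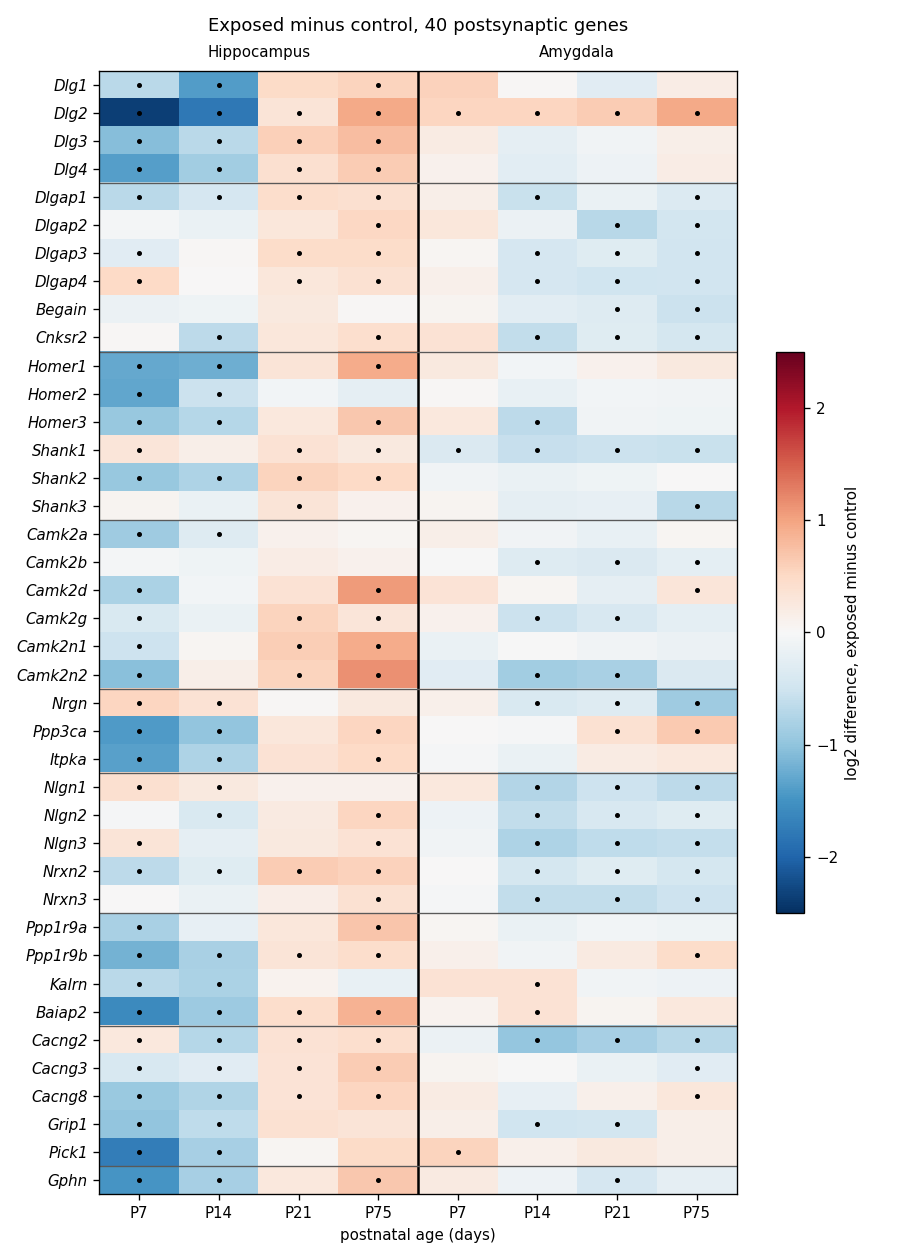
Log2 difference, exposed minus control, of the 40 members (rows, grouped by role) at each age and region (columns); red is higher and blue lower in exposed rats, and a dot marks an adjusted p under 0.05. The hippocampal columns run from mostly blue at P7 and P14 to red at P21 and P75, while the amygdala is pale at P7 and mostly blue afterwards, with Dlg2 red throughout.

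Few of these genes passed the test in the amygdala of exposed pups at P7. There 2 members rose and 1 fell, against 5.66% and 2.17% of all features and 8.23% and 2.26% of the brighter 50%, and the median was 0.10 beside 0.08 for all features. Of the brightest 10%, 5.26% rose and 4.69% fell. Dlg2 read 11.61, 11.77, 11.53 and 11.54 on exposed and 11.14, 11.07, 11.09, 10.96 and 11.09 on control arrays, all exposed arrays being the higher (0.54 ± 0.11, adjusted p = 0.00349). Pick1 read 9.51, 9.37, 9.41 and 9.62 on exposed arrays and 8.65, 9.09, 8.93, 9.34 and 8.58 on control arrays, which stopped just short of overlap (0.56 ± 0.16, adjusted p = 0.0256). Shank1 read 12.71, 13.00, 12.86 and 12.97 on exposed arrays, against 13.10, 13.23, 13.44, 13.14 and 13.28 on control arrays (-0.35 ± 0.11, adjusted p = 0.0398), with every exposed array the lower. The Shank1 call was lost without any of 6 single arrays (adjusted p = 0.0555 to 0.116) and that of Pick1 without any of 4 (0.0524 to 0.086). The count was 1 without exposed array 3, exposed array 4 or control array 5. In a limma fit of these 2 groups alone it was 0 (4 at an unadjusted p under 0.05, and 1 by the methods' t-test after Benjamini-Hochberg adjustment).

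From P14 on the members were mostly lower in the exposed amygdala. At P14, 17 fell and 3 rose, with a median of -0.22, against 19.3% lower and 16.5% higher among all features and 28.3% and 20% among the brighter 50%. At P21, 18 fell and 2 rose (median -0.22), against 16% and 9.45% of all features and 25.6% and 11.2% of the brighter 50%. At P75, 17 fell and 5 rose (median -0.18), against 11.8% and 9.35% of all features and 18.7% and 14% of the brighter 50%. Of the brightest 10%, 38.5%, 32.3% and 29.4% fell at the 3 ages, against 42.5%, 45% and 42.5% of the members.

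The adhesion genes fell together: 5 of 5 at P14, 5 of 5 at P21 and 5 of 5 at P75. Nlgn3, a neuroligin of both excitatory and inhibitory synapses, read 13.04, 13.02, 13.28, 13.33 and 13.45 on exposed P14 arrays and 14.00, 14.02, 14.01, 14.10 and 13.85 on control arrays. The exposed arrays were the more scattered and all lower (-0.77 ± 0.11, adjusted p = 8.93e-07), and Nlgn3 differed by -0.64 ± 0.11 at P21 and -0.60 ± 0.11 at P75. Nlgn1 differed by -0.74 ± 0.12, -0.53 ± 0.12 and -0.65 ± 0.12 at those 3 ages, and Nrxn3, a neurexin, by -0.62 ± 0.12, -0.61 ± 0.12 and -0.52 ± 0.12. Nlgn2, the neuroligin of inhibitory synapses, fell least at P75 (-0.30 ± 0.10), where its call was lost without exposed array 2 (adjusted p = 0.0709) or control array 4 (0.0584).

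Scaffold partners of the SAPAP group fell in 4, 5 and 6 of 6 cases at P14, P21 and P75. Dlgap2 read 9.16, 9.75, 9.84, 9.59 and 9.75 on exposed P21 arrays and 10.00, 10.56, 10.10, 10.25 and 10.66 on control arrays. Its arms were apart, with exposed array 1 well below the rest (-0.70 ± 0.15, adjusted p = 0.00087). At P75 the 6 differences lay between -0.53 (Begain) and -0.34 (Dlgap1). Single arrays ended the adult calls of Dlgap1 (3 arrays), Dlgap2 (4 arrays) and Dlgap4 (control array 4), and the P14 call of Dlgap4 (exposed array 1). At P21 the Begain call was lost without any of 9 single arrays (adjusted p = 0.0547 to 0.122) and that of Dlgap3 without any of 3. Shank1 fell at all 4 amygdalar ages, with differences of -0.58 ± 0.10 at P14, -0.54 ± 0.10 at P21 and -0.56 ± 0.10 at P75 after the one given above for P7, a call lost without any of 6 single arrays. Shank3, whose product ties SAPAP to Homer and actin, read 11.17, 10.81, 11.04, 10.98 and 11.66 on exposed adult arrays and 11.72, 11.72, 11.61, 12.03 and 12.05 on control arrays. Exposed array 5 overlapped the lowest control array, and the other exposed arrays were below all controls (-0.70 ± 0.13, adjusted p = 9.61e-05).

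Among the AMPA receptor partners the stargazin gene alone fell at P14, P21 and P75 in the amygdala. Cacng2 read 11.48, 11.38, 11.43, 11.44 and 11.30 on exposed P14 arrays and 12.32, 12.39, 12.14, 12.43 and 12.57 on control arrays (-0.96 ± 0.12, adjusted p = 1.3e-07). At P21 it read 11.51, 11.17, 11.46, 11.28 and 11.41 on exposed arrays, against 12.01, 12.38, 12.20, 12.26 and 12.14 on control arrays (-0.83 ± 0.12, adjusted p = 5.09e-06). At P75 the exposed arrays read 10.98, 10.96, 11.56, 10.87 and 11.49 and the control arrays 11.96, 11.89, 11.61, 11.87 and 11.96 (-0.69 ± 0.12, adjusted p = 4.95e-05). The arms never overlapped from P14 on, although exposed arrays 3 and 5 came close to control array 3 in adults. Its relative Cacng3 differed by -0.29 ± 0.10 in adults, Cacng8 rose by 0.28 ± 0.10, and Pick1 did not pass the test after P7. The adult calls of Cacng3 and Cacng8 were lost without any of 6 and of 5 single arrays.

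The calcium signalling members parted in the exposed amygdala. Nrgn read 14.43, 14.39, 14.17, 14.17 and 14.54 on exposed adult arrays and 15.12, 15.10, 15.26, 15.40 and 15.23 on control arrays, with a wide gap between the arms (-0.88 ± 0.10, adjusted p = 7.59e-08). Ppp3ca, whose product calmodulin activates, read 13.87, 14.02, 14.45, 14.07 and 14.39 on exposed adult arrays and 13.55, 13.47, 13.43, 13.54 and 13.57 on control arrays. There every exposed array was the higher (0.65 ± 0.12, adjusted p = 0.000165). At P21 the same gene read 14.08, 13.85, 13.95, 13.90 and 13.85 on exposed arrays, against 13.49, 13.62, 13.65, 13.60 and 13.42 on control arrays (0.37 ± 0.12, adjusted p = 0.0231). Neither exposed array 1 nor control array 5 could be left out without losing that call (adjusted p = 0.063 and 0.0621).

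Camk2n2 read 9.08, 9.47, 9.69, 9.33 and 9.75 on exposed amygdalar arrays at P14 and 10.59, 10.55, 10.09, 10.63 and 9.79 on control arrays (-0.86 ± 0.16, adjusted p = 8.92e-05). At P21 it read 9.18, 8.77, 9.04, 9.13 and 8.79 on exposed arrays and 9.53, 9.88, 9.76, 9.98 and 9.83 on control arrays (-0.81 ± 0.16, adjusted p = 0.000364). The arms were apart at both ages, narrowly at P14, where control array 5 lay just above exposed array 5. In adults Camk2n2 did not pass the test (-0.37 ± 0.16, adjusted p = 0.112), and Camk2d rose (0.31 ± 0.11) in a call that 6 single arrays could end.

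Dlg2 was the exception to the falls, since it rose in the exposed amygdala at all 4 ages. It read 12.07, 11.79, 11.96, 12.00 and 12.12 on exposed P14 arrays and 11.17, 11.50, 11.37, 11.48 and 11.78 on control arrays (0.53 ± 0.10, adjusted p = 0.000112). At P21 it read 11.83, 11.77, 11.88, 11.99 and 11.83 on exposed arrays and 11.19, 11.19, 11.27, 11.22 and 11.27 on control arrays (0.63 ± 0.10, adjusted p = 2.57e-05). The adult values were 11.64, 11.53, 12.02, 11.61 and 11.98 on exposed arrays and 10.70, 10.88, 10.78, 10.88 and 10.83 on control arrays (0.94 ± 0.10, adjusted p = 1.64e-08). No exposed array fell below a control array at any of the 3 ages. Dlg1, Dlg3 and Dlg4, its relatives, did not pass the test in the amygdala at any age, so the family that moved as a block in the hippocampus did not do so here.

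A few spine actin members rose in the exposed amygdala. At P14 Baiap2 read 11.22, 11.08, 11.41, 11.20 and 11.45 on exposed arrays and 11.04, 10.9997, 10.85, 10.62 and 11.04 on control arrays, all exposed arrays being the higher (0.36 ± 0.11, adjusted p = 0.0106). Kalrn read 9.93, 9.92, 10.03, 10.12 and 10.22 on exposed P14 arrays and 9.72, 9.81, 9.36, 9.68 and 9.81 on control arrays (0.36 ± 0.14, adjusted p = 0.0339). Its arms were apart, yet any of 5 single arrays could end the call. Ppp1r9b read 13.87, 13.93, 13.85, 13.95 and 14.08 on exposed adult arrays and 13.39, 13.46, 13.41, 13.69 and 13.45 on control arrays, with control array 4 nearest to the exposed ones (0.46 ± 0.11, adjusted p = 0.00186).

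Of the members, 12 fell in the exposed amygdala at P14, P21 and P75 alike: Dlgap3, Dlgap4, Cnksr2, Shank1, Camk2b, Nrgn, Nlgn1, Nlgn2, Nlgn3, Nrxn2, Nrxn3 and Cacng2. That run of falls was met by 6.07% of all features, 11.2% of the brighter 50% and 18.9% of the brightest 10%, against 30% of the members. At P21 single arrays ended the calls of Cnksr2 (7 arrays), Dlgap3 (3 arrays) and Nrgn (exposed array 5 or control array 5), and at P75 that of Camk2b (4 arrays). A second Camk2b feature did not pass the test at P75 (-0.05, adjusted p = 0.794). The exposure difference changed with age for 20 of the 40 there, against 32.7% of all features and 56.3% of the brightest 10%, and for 13 after quantile normalization. The random probe separated the arms in the amygdala at P7 and P75, where it was lower on exposed arrays, and at P21, where it was higher, and with it as a covariate the counts were 22 at P14, 15 at P21 and 18 at P75. In adults astrocyte markers rose in 6 of 8 cases, with sums of 72270 to 95170 on exposed and 58805 to 63759 on control arrays, while 4 of 11 neuronal markers rose and 2 fell (133237 to 163272 against 131996 to 148129). Markers of the amygdala and striatum fell in 4 of 7 cases and rose in 1, with sums of 21177 to 30464 on exposed and 39283 to 47384 on control adult arrays, and red cell markers fell in 3 of 5 (26885 to 46037 against 73124 to 87566). At P14 the amygdala and striatum sums were 17068 to 19157 on exposed and 23264 to 26453 on control arrays (3 of 7 fell and 2 rose), and 5 of 11 neuronal markers fell and 1 rose (151269 to 169415 against 167965 to 180384). At P21 the choroid plexus sums were 5875 to 7017 on exposed and 1549 to 2148 on control arrays (2 of 7 rose), and 3 of 11 neuronal markers fell and 1 rose (151584 to 157774 against 160891 to 172459). The part of these markers in the result was not tested. The adult count was 15 without exposed arrays 1 and 2 (4 rose, 11 fell), 23 without exposed arrays 3, 4 and 5 (4 rose, 19 fell), and 12 in a fit of the 2 groups alone.

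**Figure D3:**
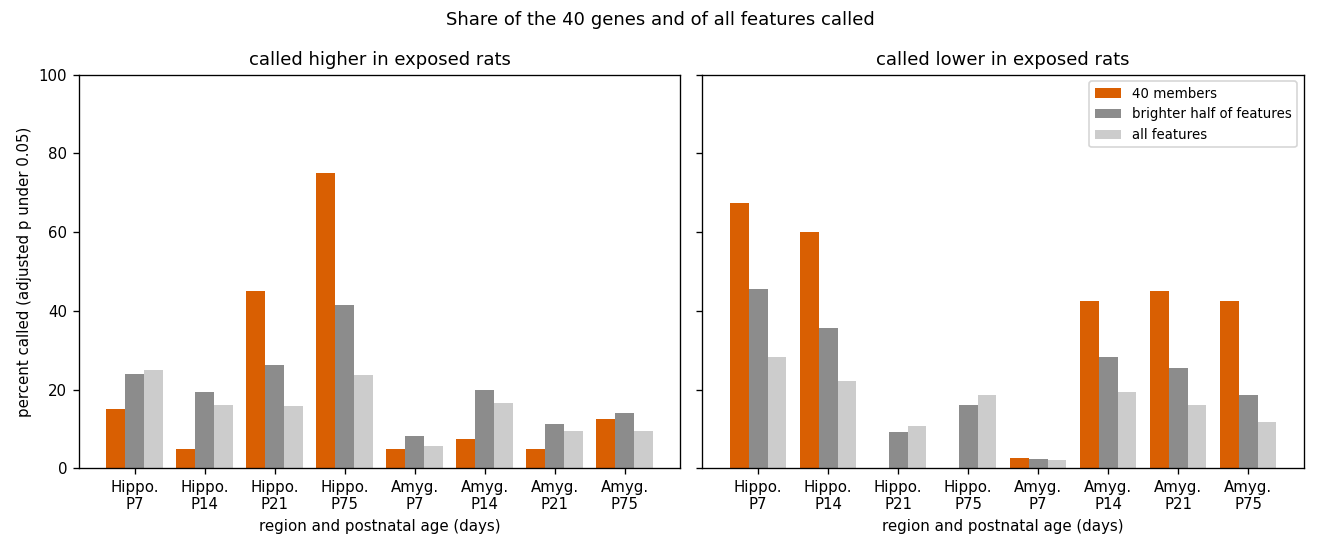
Percent of the 40 members, of the brighter 50% of features and of all features that were called higher (left) or lower (right) in exposed rats, by region and postnatal age in days. Members exceed both backgrounds among lower calls in the hippocampus at P7 and P14 and in the amygdala from P14 on, and among higher calls in the hippocampus at P21 and P75. Of the brightest 10% of features, not drawn, 50.2% were called higher in the hippocampus at P21 and 69% at P75.

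Whether the exposure difference itself differed between regions was tested in a fit of all 78 arrays, as the hippocampal minus the amygdalar difference. At P7 it was called for 30 members, 26 of them lower and 4 higher in the hippocampus, against 29.4% and 20% of all features, 46.9% and 19.9% of the brighter 50% and 54.9% and 20.8% of the brightest 10%. At P14 it was called for 21, with 13 lower and 8 higher, against 16.1% and 12% of all features, 26% and 16.8% of the brighter 50% and 32% and 25.7% of the brightest 10%. At P21 it was called for 27, all higher, against 23.2% higher and 14.4% lower among all features, 37.1% and 13.2% of the brighter 50% and 53.9% and 8.97% of the brightest 10%. At P75 it was called for 29, again all higher, against 22.3% higher and 14.6% lower, 38.2% and 13.9% of the brighter 50% and 62.3% and 8.55% of the brightest 10%. At an unadjusted p under 0.05, 1 member was lower at P21 and 0 were at P75. After quantile normalization the splits were 19 lower and 9 higher at P7 and 17 higher and 2 lower at P21, and with the random probe as a covariate 12 members were called at P7 and 2 at P21. A constant offset between regions on the log2 scale would cancel in a difference between arms within a region. Other forms of separate normalization need not cancel, and the counts of this term changed with quantile normalization.

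In adults the term was largest for Camk2n2 (1.51 ± 0.22), which rose in the hippocampus. Nrgn (1.12 ± 0.15), Cacng2 (1.10 ± 0.15), Camk2n1 (1.07 ± 0.14), Nrxn2 (1.02 ± 0.13) and Nlgn3 (0.95 ± 0.14) followed. All 5 adhesion genes and all 6 SAPAP partners had a called term at P75. Dlg2 and Ppp3ca, which rose in both adult regions, had terms of 0.01 ± 0.14 (adjusted p = 0.973) and -0.11 ± 0.16 (adjusted p = 0.617). At P7 Dlg2 had the lowest term of the 40, -2.90 ± 0.14, since it fell in one region and rose in the other, as did Pick1 (-2.28 ± 0.28).

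**Figure D4:**
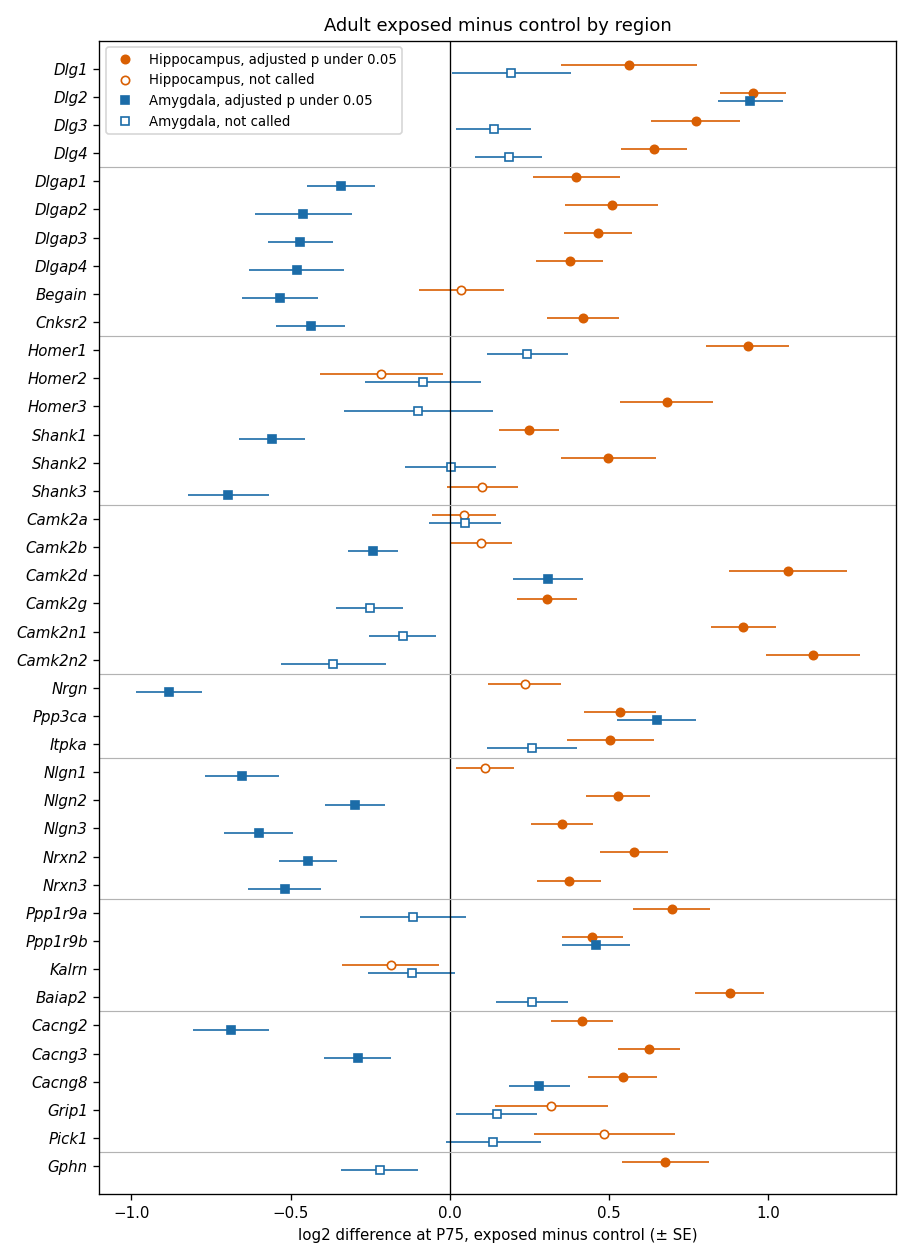
Log2 difference at P75, exposed minus control, ± SE of the limma fit, for each member in the hippocampus (circles) and the amygdala (squares); filled symbols have an adjusted p under 0.05. Most hippocampal circles lie to the right of 0, and the adhesion, SAPAP, Shank1 and Shank3 squares lie to the left, while Dlg2 and Ppp3ca are to the right in both regions.

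The course of the members with age in control rats was read beside these differences. On principal component 1 the control hippocampal arrays of P7 and P14 scored -101.6 to -47.5, and those of P21 and P75 scored 52.6 to 61.2. The labels name no batches, so age and batch cannot be told apart across that step, the span from P7 to P75 included. In the control hippocampus 23 members rose and 4 fell at P14 relative to P7, against 10.6% and 11% of all features and 16.8% and 18.3% of the brighter 50%. At P21 relative to P14, 1 rose and 27 fell, against 24.1% and 29.9% of all features and 21% and 47.7% of the brighter 50%. After quantile normalization 4 rose and 21 fell, and with the random probe as a covariate 2 members were called. The probe read 43.41 to 46.21 at P14 and 54.81 to 55.53 at P21, so this covariate overlaps with age. At P75 relative to P21, 2 members rose and 0 fell, against 0.882% and 1.65% of all features and 1.32% and 2.73% of the brighter 50%, with 1 lower at an unadjusted p under 0.05. That count was 0 without P21 array 1 or 5. Of the brightest 10% of features, 25.4% rose and 26.3% fell from P7 to P14. From P14 to P21 15.4% of them rose and 61.8% fell, against 2.5% and 67.5% of the members. From P21 to P75 2.16% of the brightest 10% rose and 3.86% fell. The same control arrays enter the exposure differences, so the P14 peak of controls and the P7 and P14 falls of exposed rats are not separate observations. Highest group means in the hippocampus lay in control P14 for 15 members, in exposed P75 for 13, in control P7 for 6, in exposed P21 for 4 and in exposed P14 for 2.

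From P7 to adulthood 12 members rose and 14 fell in the control hippocampus, against 29.4% and 30.4% of all features and 26.1% and 47.7% of the brighter 50%. Of the brightest 10%, 25.2% rose and 55.8% fell. The 35% of members that fell lay below the shares of the brighter 50% and of the brightest 10%. After quantile normalization 23 rose and 9 fell. Cnksr2, a scaffold that joins PSD-95 to small GTPase signalling, read 11.68, 11.59, 11.76, 11.73 and 11.76 at P75 and 9.87, 10.13, 10.30, 10.06 and 10.23 at P7, more than a log2 unit apart (1.58 ± 0.11, adjusted p = 1.12e-14). Nrgn read 15.07, 15.10, 15.15, 15.17 and 15.14 at P75, against 13.52, 13.78, 13.60, 13.57 and 13.73 at P7 (1.49 ± 0.12, adjusted p = 1.1e-13). Dlgap1 read 12.12, 12.11, 12.20, 12.14 and 12.24 at P75 and 11.46, 11.14, 11.63, 11.44 and 10.88 at P7 (0.85 ± 0.14, adjusted p = 1.39e-06). All 3 were tight in adults and more scattered in pups.

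The falls of control rats from P7 to P75 were led by Dlg2, at -1.92 ± 0.10. Homer2 read 8.40, 9.24, 9.17, 8.10 and 9.19 at P75 and 10.71, 10.47, 10.61, 10.43 and 10.66 at P7 (-1.75 ± 0.19, adjusted p = 7.68e-10). Grip1, which anchors AMPA receptors, read 7.55, 8.10, 7.75, 8.22 and 7.66 at P75, against 9.83, 9.48, 9.58, 9.45 and 9.56 at P7 (-1.72 ± 0.18, adjusted p = 1.67e-10). Adult and pup arrays did not overlap for any of these genes. As means, 37 of the 40 members were higher at P75 than at P7 in exposed hippocampi and 20 of the 40 in control hippocampi. In the amygdala it was 17 in exposed and 26 in control rats. With the random probe as a covariate limma called 0 members between P75 and P7 in the control hippocampus, and 8 at an unadjusted p under 0.05. The probe's own readings at these ages did not overlap (43.41 to 44.32 at P7 and 55.33 to 57.2 at P75), so the covariate overlaps with age.

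In the control amygdala 14 members rose and 0 fell at P14 relative to P7, against 4.77% and 2.38% of all features and 7.81% and 3.28% of the brighter 50%, with 2 lower at an unadjusted p under 0.05. At P21 relative to P14, 9 rose and 2 fell, against 7.43% and 4.92% of all features and 11.3% and 7.44% of the brighter 50%. At P75 relative to P21, 0 rose and 6 fell, against 0.954% and 2.9% of all features and 1.29% and 5.18% of the brighter 50%, with 1 higher at an unadjusted p under 0.05. That last count was 2 without P21 array 5 or P75 array 1, and after quantile normalization 1 rose and 4 fell. In fits of the 2 groups alone the 3 steps had 1, 7 and 1 calls. Of the brightest 10% of features, 13.1% rose and 4.88% fell from P7 to P14. From P14 to P21 it was 13.9% and 14.2%, and from P21 to P75 2.23% and 9.42%. From P7 to P75, 15 members rose and 6 fell, against 13.8% and 11.6% of all features and 20% and 18.4% of the brighter 50%. Of the brightest 10%, 23.7% rose and 26.8% fell over that span. Cnksr2 again led the rises, reading 11.93, 11.89, 11.84, 11.89 and 11.86 at P75 and 10.09, 10.46, 10.41, 9.75 and 10.09 at P7 (1.72 ± 0.11, adjusted p = 1.38e-14). Dlg1 read 9.82, 9.84, 9.64, 9.88 and 9.99 at P75, against 8.50, 8.74, 9.01, 8.56 and 7.13 at P7, where array 5 was far below the others (1.45 ± 0.19, adjusted p = 2.13e-07).

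Camk2n1 rose by 1.16 ± 0.10 and Camk2n2, its relative, fell by 1.5 on the log2 scale from P7 to P75 in the control amygdala. Camk2n1 read 13.69, 13.62, 13.74, 13.86 and 13.93 at P75 and 12.72, 12.81, 12.62, 12.52 and 12.35 at P7, while Camk2n2 read 9.09, 9.36, 9.29, 9.52 and 9.25 at P75 and 10.83, 10.81, 10.94, 10.75 and 10.68 at P7. The 2 inhibitors moved in opposite directions with age, each without overlap. Grip1 (-1.11 ± 0.13) and Nrxn2 (-0.58 ± 0.09) fell too, Grip1 reading 8.87 to 9.41 at P75 and 10.10 to 10.37 at P7.

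Every member was called in at least 1 of the 8 comparisons of exposed and control rats, against 83.3% of all features and 98% of the brightest 10%. In the hippocampus 11 (27.5%) were called at all 4 ages, against 8.62% of all features and 28.5% of the brightest 10%. In the amygdala Dlg2 and Shank1 were (5%), against 0.863% and 2.57%, and the Shank1 call at P7 rested on single arrays. Dlg2 was called in 8 of 8 comparisons, more than any other member, as were 0.136% of all features and 0.681% of the brightest 10%.

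Other postsynaptic genes, among them glutamate receptor subunits, calmodulins and further scaffolds, were read beside the members: 56 of 91 listed were measured. In the hippocampus 35 fell and 1 rose at P7, 40 fell and 2 rose at P14, 24 rose and 1 fell at P21, and 35 rose and 2 fell at P75. Of all features 28.3% fell at P7, 22.2% fell at P14, 15.8% rose at P21 and 23.7% rose at P75. Of the brightest 10% these shares were 55.8%, 42.7%, 50.2% and 69%. In the amygdala 3 of the listed genes rose at P7, 24 fell and 6 rose at P14, 15 fell and 5 rose at P21, and 15 rose and 14 fell at P75. Of all features 5.66% rose at P7, 19.3% and 16% fell at P14 and P21, and 9.35% rose and 11.8% fell at P75. Of the brightest 10% these shares were 5.26%, 38.5%, 32.3%, 18.4% and 29.4%. Calm2, a calmodulin gene, rose in the amygdala at every age, by 0.42 ± 0.10 at P7, 0.67 ± 0.10 at P14, 0.54 ± 0.10 at P21 and 0.83 ± 0.10 at P75, and Nrgn, which binds its product, fell at the last 3. Cdk5, a kinase that phosphorylates PSD-95, fell in the adult amygdala (-0.65 ± 0.09), and so did Lin7b, a PDZ scaffold (-0.82 ± 0.13).

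The authors' deposited tables list features past a Bonferroni-corrected t-test and a fold of at least 1.5, and they name few of the members. For the hippocampus at P7 the authors' deposited table lists 7 members among 722 features, all lower, with Dlg2 at 5.11-fold, Baiap2 at 3.01-fold and Dlg4 at 2.61-fold, beside Itpka, Homer2, Ppp1r9b and Cacng8. The authors' deposited table for P14 lists Dlg2 alone (3.46-fold lower, of 307 features), that for P21 lists Dlg3 and Camk2n1 as higher (of 80), and that for P75 lists Dlg2, Baiap2, Cacng3 and Camk2n1 as higher (of 360). In the authors' deposited tables for the amygdala, 0 members stand at P7 (of 3 features) and 0 at P75 (of 80), Cacng2 and Nlgn1 stand as lower at P14 (of 150), and Dlg2 stands as higher at P21 (of 187).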

How the data were processed

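The value table the authors deposited gives linear intensity per feature and array. Its normalization is not given in the sources used here, and whether the regions were normalized separately could not be settled: pairs of arrays shared a median of 329 identical values within a region and 85 between regions. Log2 intensities, without a pseudocount, were fitted per region over 8 groups with limma 3.58.1 in R 4.3.3 (lmFit, eBayes). The regions' difference was fitted over 78 arrays. Benjamini-Hochberg adjustment ran over 26419 features, without 1 random-sequence probe. Features were named through RefSeq tables. In the authors' deposited tables the fold ratio is absolute, and the p-value is from an unpaired t-test with Bonferroni correction, per the file headers. Per-array columns of those tables that match no sample label (312 in all) were not used. Values in figures and sums used numpy 2.4.6 and pandas 2.3.3. The number of arrays limits the precision, and no depth applies.

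The members and gene lists were chosen with earlier results of these data known. Members named with every array were the 3 with the largest difference in each direction per comparison among those called. Replicate numbers did not pair arrays: over 38 exposed and control pairs the correlation of deviations from group means lay between -0.157 and 0.077, and over 39 hippocampal and amygdalar pairs between -0.127 and 0.074. On simulated data of the hippocampal P7 design, 66 of 100 features changed by 1 log2 unit and 11 of 100 changed by 0.5 were recovered, with 3 false calls. Only these features were changed there, while 53.4% of all features were called in the real comparison. The Benjamini-Hochberg cutoff was therefore stricter in the simulation, and its recovery and false calls are not those of the real fit. Alternatives were quantile normalization, a filter that removed the dimmer 50% of features, limma's trend and robust options, a replicate block, the 2 groups alone, the methods' t-test, the random probe as a covariate, the second brightest feature and leaving out each array. The joint removal of arrays that stood apart and the Benjamini-Hochberg form of the t-test were added after seeing the data.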

Additional observations from a re-analysis of the deposited data

Results flagged for a closer look

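Single arrays stood apart from the rest of their group in 6 of the 95 member groups checked, and chance flags about 1 in 20 such groups. They were Dlg2 on exposed hippocampal array 5 at P14 (log2 intensity 10.35, above its group), Nrxn2 on control hippocampal array 3 at P21 (12.22, below), Camk2d on control hippocampal array 4 at P75 (9.71, above), Ppp1r9b on control amygdalar array 4 at P75 (13.69, above), Cacng2 on control amygdalar array 3 at P75 (11.61, below) and Dlg1 on control amygdalar array 5 at P7 (7.13, below). In the 4 adult and weaning groups the array nonetheless lay on its own arm's side of the other arm.

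The exposure difference depended on age by limma's F test for 34 members in the hippocampus and 20 in the amygdala. It depended on region by the interaction term for 30 members at P7, 21 at P14, 27 at P21 and 29 at P75. The random-sequence probe, which enters no member comparison, read above the control arrays in the exposed hippocampus at P7 (mean 52.97 against 43.97) and P14 (48.57 against 45.2) and in the exposed amygdala at P21 (46.71 against 45.31).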

How the results depend on the processing

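Counts are members called of 40. Quantile normalization gave 8 in the hippocampus at P21, 17 at P75 and 13 for the age dependence in the amygdala. It turned the sign of Dlgap3 (0.0511) and Nlgn2 (0.31) at P7 and Shank1 (-0.0208) at P75 in the hippocampus. Of these Nlgn2 alone passed limma's test in that fit (adjusted p = 0.00963), having been uncalled in the main fit. Without the dimmer 50% of features the amygdala had 6 at P7 and 10 between control P75 and P21, and trend and robust moderation gave 6 at P7. Fits of the 2 groups alone gave 0 at P7 and 12 at P75 in the amygdala, 0 between control P75 and P21 in the hippocampus, and 1, 7 and 1 for the 3 control steps in the amygdala. The methods' t-test with Bonferroni correction gave 3, 1, 1 and 2 at the 4 hippocampal ages and 0, 1, 1 and 0 in the amygdala, 3, 4, 0 and 5 for the control steps and the span P75 to P7 in the hippocampus, and 0, 0, 0 and 2 in the amygdala. That correction ran over all features. The authors' corrected p-values reflect fewer tests: for Dlg2 at hippocampal P7 their t-test p of 2.82e-09 became 1.93e-05. These stricter counts therefore do not test the authors' lists of members. With Benjamini-Hochberg adjustment the methods' t-test gave 1 in the amygdala at P7 and 6 for its first control step. The random probe as a covariate gave 6, 14, 0 and 2 at the 4 hippocampal ages, 12 for their age dependence, 2, 1 and 0 for control P21 to P14, P75 to P21 and P75 to P7, 1 in the amygdala at P7, 1 for its last control step, and 12 and 2 for the regions' difference at P7 and P21. It turned the sign of Shank1 (-0.18), Nrgn (-0.12) and Cacng3 (0.25) in the hippocampus at P7, of Dlg3 (-0.16), Shank3 (-0.0717), Camk2n2 (-0.0231), Cacng3 (-0.17) and Cacng8 (-0.0496) at P21, and of Shank2 (-0.56) in the amygdala at P75. The cause was not tested. The probe separated the arms at every hippocampal age and at P7, P21 and P75 in the amygdala. As a covariate it therefore overlaps with exposure and widens the standard errors. Lost calls, and turned signs that did not pass the test, cannot be told from lost precision. Shank2 in the adult amygdala did pass it in that fit (-0.56 ± 0.19, limma adjusted p = 0.0326). Its main-fit group means were 11.299 on exposed and 11.296 on control arrays, so its estimate moved as well. A further 7 member results gained a call without a turned sign.

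With the replicate block, which the correlations do not call for as a pairing, 1 member was called between control P75 and P21 in the hippocampus. All 320 member results between exposed and control rats, called or not, kept their side of the threshold. Leaving out 1 array gave ranges of 31 to 33, 22 to 27, 14 to 18 and 28 to 30 at the 4 hippocampal ages and of 1 to 4, 18 to 21, 16 to 19 and 15 to 22 in the amygdala. The age dependence had 34 to 36 and 16 to 24, and the regions' difference 27 to 32, 20 to 22, 25 to 28 and 28 to 29. Control steps had 24 to 28, 27 to 29, 0 to 3 and, over the whole span, 23 to 27 in the hippocampus, and 10 to 15, 10 to 12, 2 to 6 and 19 to 21 in the amygdala. Of the members' results with an array left out, called or not, 2965 kept their side of the threshold. Calls were lost in 133 and gained in 22, and 0 results with a call turned sign. With 4 or 5 arrays a group, small differences are beyond the precision of these data, and dim features are limited by the background signal.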

Other observations

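Among the other postsynaptic genes, Calm2, a calmodulin gene, was lower and then higher in the exposed hippocampus, with differences of -1.83 ± 0.10 at P7, -0.73 ± 0.10 at P14, 0.84 ± 0.10 at P21 and 0.70 ± 0.10 at P75, all called by limma after Benjamini-Hochberg adjustment. Rgs14, a G protein regulator known from CA2 neurons, went the opposite way: it rose at P7 (0.92 ± 0.18) and fell at P75 (-0.51 ± 0.17). Cdk5, a neuronal kinase, fell at P7 (-0.43 ± 0.10) and rose at P14 (0.31 ± 0.10), P21 (0.31 ± 0.10) and P75 (0.70 ± 0.10). In the exposed amygdala Cdk5 fell at P14 (-0.59 ± 0.09), P21 (-0.43 ± 0.09) and P75 (-0.65 ± 0.09), and Lin7b, a scaffold of the Lin-7 family, fell at the same ages.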
